A study of Rattus norvegicus with 16 samples.

Results

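A set of 10 genes of the endoplasmic reticulum (ER) chaperones and the unfolded protein response were followed in rat hepatoma H35 cells in which Pdrg1 had been silenced: Dnajb11, Hspa5, Dnajb9, Hsp90b1, Calr, Pdia4, Herpud1, Xbp1, Atf4 and Ddit3. Members were the probes carrying one of these 10 gene names, 1 probe a gene, of 30367 probes and 26269 gene names on the array. Dnajb11 was chosen by its own values, because it read lower than the control in all 3 silenced groups, and the other 9 genes were added for their known roles. The differences of Dnajb11 from the control are therefore given as a description, with no test.

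H35 is an established rat hepatoma cell line. The 4 groups, 4 biological replicates each on 1-colour arrays, were CN-10, a stable clone carrying the negative control shRNA plasmid, 4-18, a stable clone with the shRNA4 plasmid against Pdrg1, 3-44, a stable clone with the shRNA3 plasmid, and shRNA3T, a pool of cells transfected with shRNA3 and enriched by antibiotic selection without cloning. All 16 samples thus came from transfected cells selected in G418, the stable lines at a higher dose than the pool, and stable clones had been kept for reproducible RT-qPCR results. Each stable line is 1 clone, so what belongs to the clone and what belongs to the silencing cannot be told apart, and no pool carrying the control plasmid is among these samples. Each group was hybridized on a slide of its own, the slide of 4-18 being scanned on another day, and an effect of the slide cannot be told apart from one of the group.

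The ER lumen is where secreted and membrane proteins fold. Hspa5 (BiP) is its Hsp70 chaperone, which DnaJ proteins such as Dnajb11 (ERdj3) and Dnajb9 (ERdj4) supply with substrates and stimulate to hydrolyse ATP. When unfolded proteins accumulate, the sensors IRE1, PERK and ATF6 start the unfolded protein response, whose transcription factors XBP1 and ATF6 raise chaperone genes through ER stress elements, while ATF4 raises amino acid and stress genes, among them Ddit3 (CHOP). Hepatocytes secrete most plasma proteins and carry a large ER.

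The ER stress elements in the promoters of the members are shown first, because XBP1 and ATF6 are known to act through them. All 10 members had an entry in the RefSeq promoter table (build GRCr8), which holds 250 bases before and 50 bases after the start site. Both strands were searched for ERSE (CCAAT, 9 bases of any kind, CCACG) and for ERSE-II (ATTGG, 1 base of any kind, CCACG). ERSE was found in 4 of the 10 members and in 22 of all 33469 promoters (0.0657%), and ERSE-II in 2 members and 17 promoters (0.0508%). The following 7 sites were found, each printed 5′ to 3′ on the strand that carries it, with the fixed letters in capitals.

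Dnajb11 ERSE-II, minus strand of chr11:91672800-91672810: ATTGGcCCACG

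Herpud1 ERSE-II, minus strand of chr19:10614821-10614831: ATTGGgCCACG

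Hspa5 ERSE, plus strand of chr3:38452973-38452991: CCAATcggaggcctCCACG

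Xbp1 ERSE, plus strand of chr14:84604558-84604576: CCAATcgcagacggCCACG

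Calr ERSE, minus strand of chr19:40213135-40213153: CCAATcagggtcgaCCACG

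Hsp90b1 ERSE, distal, minus strand of chr7:23012451-23012469: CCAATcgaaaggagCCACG

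Hsp90b1 ERSE, proximal, plus strand of chr7:23012347-23012365: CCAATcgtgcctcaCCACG

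Dnajb11 carried its ERSE-II from base -10 to base 1, ending on the RefSeq start site itself (base 1), whereas the ERSE-II of Herpud1 lay from -124 to -114. Hspa5 had its ERSE from -43 to -25 and Xbp1 from -65 to -47. The promoters of Dnajb9, Pdia4, Atf4 and Ddit3 held neither element in this window. UPRE (TGACGTGG), found in 0.595% of all promoters, and the ATF4 element CARE (TGATGNAAT), found in 1.09%, were in none of the 10. These matches describe the letters of the window only.

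The 250 bases before the start site are printed for the 2 genes that stand at the centre of the comparison, the DnaJ protein whose signal was lower and the Hsp70 chaperone it serves. The fixed letters of the elements are in capitals. The ERSE-II of Dnajb11 loses its last letter because that base is the start site itself.

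Dnajb11, minus strand of chr11:91672801-91673050 (GRCr8): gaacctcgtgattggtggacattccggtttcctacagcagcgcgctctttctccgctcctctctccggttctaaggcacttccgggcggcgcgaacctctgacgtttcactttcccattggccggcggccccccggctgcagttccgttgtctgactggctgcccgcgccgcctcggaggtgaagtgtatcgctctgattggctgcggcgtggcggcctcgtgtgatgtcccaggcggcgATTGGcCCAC

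Hspa5, plus strand of chr3:38452766-38453015 (GRCr8): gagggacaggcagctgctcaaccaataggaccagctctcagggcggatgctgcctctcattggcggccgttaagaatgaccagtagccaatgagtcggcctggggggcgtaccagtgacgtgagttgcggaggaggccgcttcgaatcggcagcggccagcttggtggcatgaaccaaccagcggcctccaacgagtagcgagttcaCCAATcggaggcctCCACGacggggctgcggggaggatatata

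**Figure D1:**
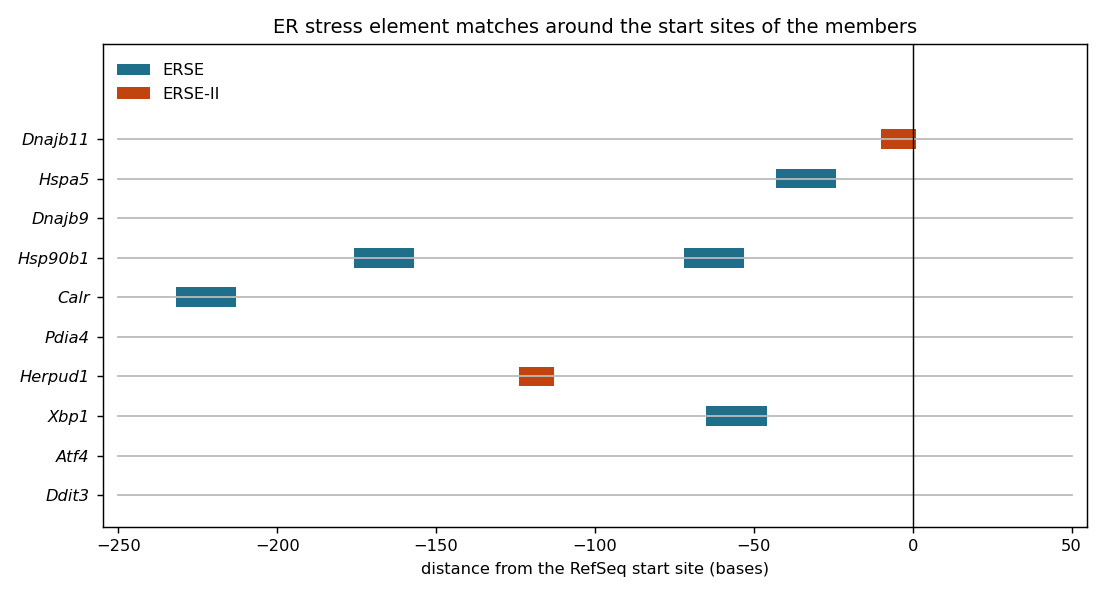
Matches to ERSE (blue) and ERSE-II (orange) from 250 bases before to 50 bases after the RefSeq start site of each member, with distance from the start in bases on the horizontal axis. The ERSE-II of Dnajb11 ends on the start site, and Dnajb9, Pdia4, Atf4 and Ddit3 have no match.

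The probe of each member was well above background on all 16 arrays and none was saturated. As outliers, 18 spots of members were set aside, so Herpud1, Ddit3 and Hsp90b1 lack a value on some arrays. Between 53.1% and 74.3% of the spots of an array were well above background, with the lowest median in 4-18 (62.4%). Albumin read 17.14 to 17.31 on the log2 scale in the group means, but not every hepatocyte marker was as even. Ttr averaged 13.76 for the control clone and 16.14 to 16.69 for the silenced groups. Apoa1 means ran from 8.04 (4-18) to 12.34 (3-44), with 10.16 for CN-10. Tf means ran from 14.92 (4-18) to 17.45 (3-44), with 16.43 for CN-10. Afp means stayed within 13.03 and 13.91. These marker differences were not tested. Of 11 hepatocyte markers, 8 were well above background on all 16 arrays. So were 2 of 6 leukocyte and Kupffer cell markers (Cd14 and Lyz2) and 2 of 5 endothelial ones (Cdh5 and Vwf). For stellate cells and fibroblasts it was 1 of 6 (Col1a1), and for cholangiocytes 0 of 4. Cd68, Col1a2, Acta2, Des and Sox9 of these lists were so on 15 of 16 arrays, and Ptprc, Cd163, Pecam1, Tek and Epcam on 0. Pdrg1, the silenced gene, read 13.64 ± 0.22 in CN-10 (SD, n = 4), and all 12 silenced arrays lay below all 4 CN-10 arrays. Its differences were -0.77 in 4-18, -0.99 in 3-44 and -0.85 in shRNA3T (SE 0.34 each, limma adjusted p = 0.129, 0.105 and 0.143), so the label check rests on the order of the arrays. Replicate 1 of 4-18 read 11.57, far below the other 3, and without it the adjusted p was 0.0086 in 3-44 and 0.0149 in shRNA3T, while the difference in 4-18 shrank to -0.33 (adjusted p = 0.349). In each of the 4 groups replicate 1 was the array with the lowest Pdrg1, the lowest Atf4 and the highest Calr. All levels below are normalized intensities on the log2 scale, where 1 unit is 2-fold, and are compared between groups for 1 probe, never between probes.

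Dnajb11 encodes the DnaJ protein that binds unfolded chains in the ER lumen and hands them to Hspa5. Its probe, ggctgcagggctattagaactgaagaactg over its first 30 bases, lies at chr11:80360981-80361040 (rn4, minus strand) and was spotted 10 times on each array. The 4 CN-10 arrays read 12.94, 13.07, 13.23 and 12.99. Those of 4-18 read 12.41, 12.29, 12.29 and 12.34, and those of 3-44 read 12.69, 12.47, 12.59 and 12.53. The shRNA3T arrays read 12.10, 12.35, 12.30 and 12.14. Every silenced array was below every CN-10 array, and 3-44 lay between CN-10 and the other 2 groups without overlapping either 4-18 or shRNA3T.

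Against CN-10 the mean of Dnajb11 (13.06 ± 0.12, SD, n = 4) stood above that of 4-18 (12.33 ± 0.05), 3-44 (12.57 ± 0.09) and shRNA3T (12.22 ± 0.12). The differences from CN-10 were -0.72, -0.49 and -0.83 (SE 0.08), or -39.4%, -28.7% and -43.9% of the linear signal, none of them 2-fold. Dnajb11 was the only member of the 10 to lie below CN-10 without overlap in all 3 silenced groups, a pattern that 537 of 30365 probes showed (1.77%), and no member lay above CN-10 in that way (1.51% of probes). Since these values chose the gene, nothing is read from them. Under the alternatives tried, the difference kept its sign and ran from -1.47 to -0.67 in 4-18, from -0.63 to -0.41 in 3-44 and from -1.02 to -0.59 in shRNA3T.

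The silenced groups were also compared with each other by test. The choice of Dnajb11 used the values of these same groups, so its p-values here serve as a description only. Dnajb11 was higher in 3-44 than in shRNA3T by 0.35 (SE 0.08, limma adjusted p = 0.0113), although both carry shRNA3, and this did not pass in 4 of 27 alternatives, among them without the replicate 1 arrays (0.27, adjusted p = 0.0641). The difference of -0.23 between 4-18 and 3-44 (SE 0.08, adjusted p = 0.0489) passed narrowly and did not pass in 20 of 27 alternatives, 12 of them the removal of a single array. Between 4-18 and shRNA3T the difference was 0.11 (95% interval -0.06 to 0.28, adjusted p = 0.396). It turned to -0.62 in the deposited values not scaled between arrays (adjusted p = 0.103) and to -0.36 under 75th percentile scaling centred on the median of all probes, where it passed (adjusted p = 0.0237).

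The 10 spots of the Dnajb11 probe repeat the same sequence and show how far a single spot can be relied on. In 4-18 all 10 spots were below CN-10, by -1.20 to -0.23. In 3-44 it was 8 of 10 (-1.03 to 0.37) and in shRNA3T 9 of 10 (-1.37 to 0.03). The exceptions were spots 1 and 2 in 3-44 and spot 1 in shRNA3T, which were also the dimmest in CN-10 (means of 12.05 and 12.15, against 13.45 for spot 7). The signal was lower by at least 2-fold at 4 spots in shRNA3T, at 2 in 4-18 and at 1 in 3-44. With the median in place of the mean of the spots the difference in shRNA3T became -1.02, past 2-fold. The part that spot position plays in the size of the difference was not tested.

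**Figure D2:**
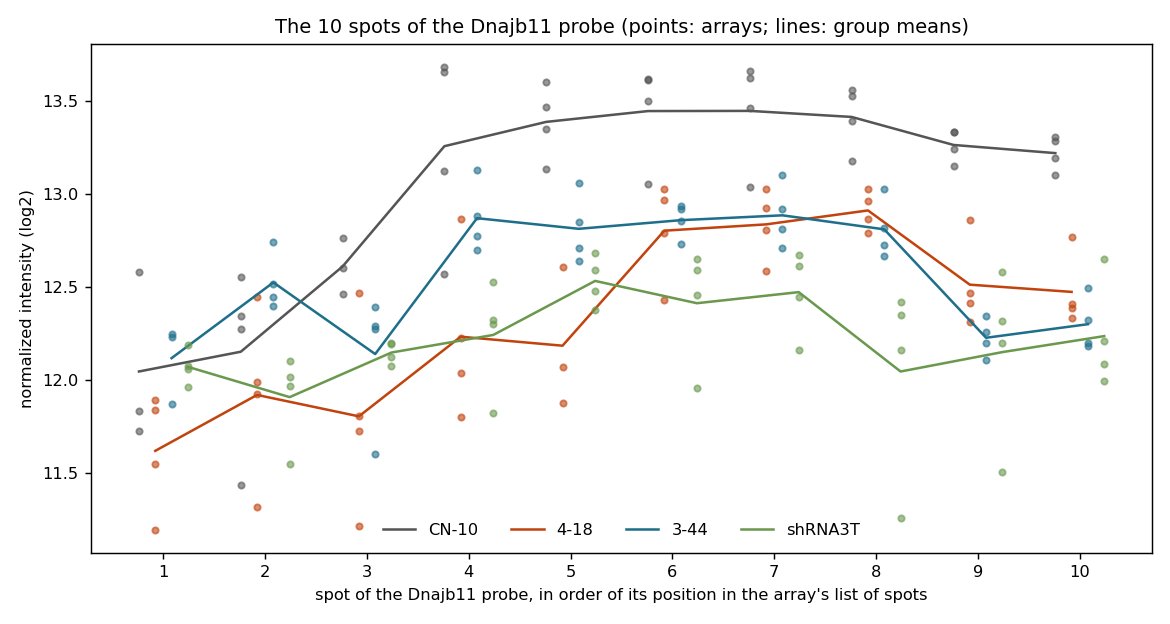
Normalized intensity (log2) of the 10 spots of the Dnajb11 probe, with points for single arrays and lines for group means. The CN-10 mean lies above those of the silenced groups from spot 3 onwards, and the gap is smallest at spots 1 and 2.

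No call was made against CN-10 for Hspa5, Dnajb9 or Hsp90b1. Hspa5, the Hsp70 chaperone itself, is measured at chr3:13787739-13787798 (rn4, plus strand). It read 15.42, 14.43, 15.27 and 15.99 in CN-10 and 15.48, 14.58, 16.27 and 16.11 in 4-18. The 3-44 arrays read 14.81, 15.73, 15.67 and 15.66 and the shRNA3T arrays 15.88, 15.74, 15.69 and 15.61. All groups overlapped, and the arrays of CN-10 and 4-18 were widely spread (SD 0.64 and 0.77). Hspa5 differed from CN-10 by 0.33, 0.19 and 0.45 in 4-18, 3-44 and shRNA3T (SE 0.36, limma adjusted p = 0.573, 0.845 and 0.536). With a 95% interval of -0.31 to 1.21 in shRNA3T, a difference of 2-fold upwards could not be told from none.

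Dnajb9, a co-chaperone that holds IRE1 in check with Hspa5, ranged from 8.61 to 9.23 in CN-10, 8.80 to 9.43 in 4-18, 8.61 to 9.41 in 3-44 and 9.07 to 9.62 in shRNA3T. Groups overlapped throughout, with differences of 0.06, 0.17 and 0.42 from CN-10 (SE 0.20, limma adjusted p = 0.875, 0.726 and 0.229). Hsp90b1 (GRP94), the Hsp90 of the ER, ranged from 14.35 to 15.05 in CN-10 and its differences were -0.19, 0.23 and 0.10 (adjusted p = 0.45, 0.439 and 0.806). Its 3 measured arrays in 4-18, 14.39 to 14.65, lay below all arrays of 3-44 (14.83 to 15.21) and of shRNA3T (14.68 to 14.99), though neither difference passed the test (-0.42, adjusted p = 0.0732, and -0.29, adjusted p = 0.246). Both directions turned under other scalings, to 0.19 and 0.29 with the 75th percentile and to 0.18 and 0.19 with the processed signal and quantile normalization, and that of 4-18 against CN-10 turned to 0.31 and 0.25. Replicate 1 of 4-18 gave no value for Hsp90b1 because its spot was set aside as an outlier.

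Calr (calreticulin), a lectin chaperone of glycoproteins that binds calcium, is measured at chr19:24967507-24967566 (rn4, plus strand). Its CN-10 arrays read 14.38, 14.23, 14.26 and 14.23 and its 4-18 arrays 14.77, 14.28, 14.60 and 14.39. In 3-44 it read 14.45, 14.08, 14.09 and 14.09, and in shRNA3T 14.14, 13.79, 14.08 and 13.98. Hence shRNA3T lay below CN-10 and below 4-18 without overlap. The difference of shRNA3T from CN-10 was -0.28 (SE 0.12, limma adjusted p = 0.154), and those of 4-18 and 3-44 were 0.24 and -0.10 (adjusted p = 0.172 and 0.718). Calr passed in 1 of 27 alternatives in 4-18, the replicate block, and in 2 of 27 in shRNA3T, the block among them. Between 4-18 and shRNA3T Calr differed by 0.52 (SE 0.12, adjusted p = 0.00494), a call that held in 23 of 27 alternatives and turned to -0.18 in the deposited values not scaled between arrays and to -0.10 after 75th percentile scaling centred on the median of all probes.

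Pdia4 (ERp72), a disulfide isomerase, had the largest positive difference of the 9 tested members in 3-44 and in shRNA3T, though neither passed the test. Its probe spans chr4:75929978-75931486 (rn4, minus strand), 60 bases split over 1509 bases of genome. In CN-10 the arrays read 9.76, 9.63, 9.56 and 11.12, and in 4-18 9.75, 11.62, 10.51 and 10.59. The 3-44 arrays read 10.78, 11.16, 11.25 and 11.27 and the shRNA3T arrays 10.50, 11.23, 10.92 and 10.997. Replicate 4 of CN-10 alone reached the range of 3-44 and shRNA3T, the other 3 CN-10 arrays being below all arrays of both, and 4-18 also overlapped CN-10 at its own lowest array. Pdia4 differed from CN-10 by 0.60, 1.10 and 0.90 (SE 0.36, limma adjusted p = 0.277, 0.0865 and 0.144). Without replicate 4 of CN-10 the differences were 0.97, 1.47 and 1.26 and all passed (adjusted p = 0.0415, 0.0118 and 0.0184). In 3-44 Pdia4 passed in 8 of 27 alternatives, among them without replicate 2 of 4-18 (adjusted p = 0.0388). That removal took the difference in 4-18 down to 0.27.

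Herpud1, an ER membrane protein of the degradation machinery, is measured at chr19:11036709-11036768 (rn4, minus strand). It read 11.61, 11.07 and 12.31 in the 3 measured CN-10 arrays and 12.01, 13.09 and 11.86 in those of 4-18. The 3 measured arrays of 3-44 read 11.36, 10.67 and 11.21, and the 4 of shRNA3T 12.58, 12.30, 12.86 and 11.59. All arrays of 3-44 lay below all arrays of 4-18 and of shRNA3T, while CN-10 overlapped every group. From CN-10 Herpud1 differed by 0.66, -0.58 and 0.67 in 4-18, 3-44 and shRNA3T (SE 0.38 to 0.40, limma adjusted p = 0.292, 0.498 and 0.344). With 1 array left out these differences ran from 0.27 to 0.98, from -0.88 to -0.26 and from 0.37 to 0.99. Herpud1 was higher in 4-18 than in 3-44 by 1.24 (SE 0.40, adjusted p = 0.0465). This passed in 11 of 27 alternatives and was 0.86 without replicate 3 of 4-18 (adjusted p = 0.162). The difference of -1.25 between 3-44 and shRNA3T did not pass (SE 0.38, adjusted p = 0.0569), but did in 7 of 27 alternatives.

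**Figure D3:**
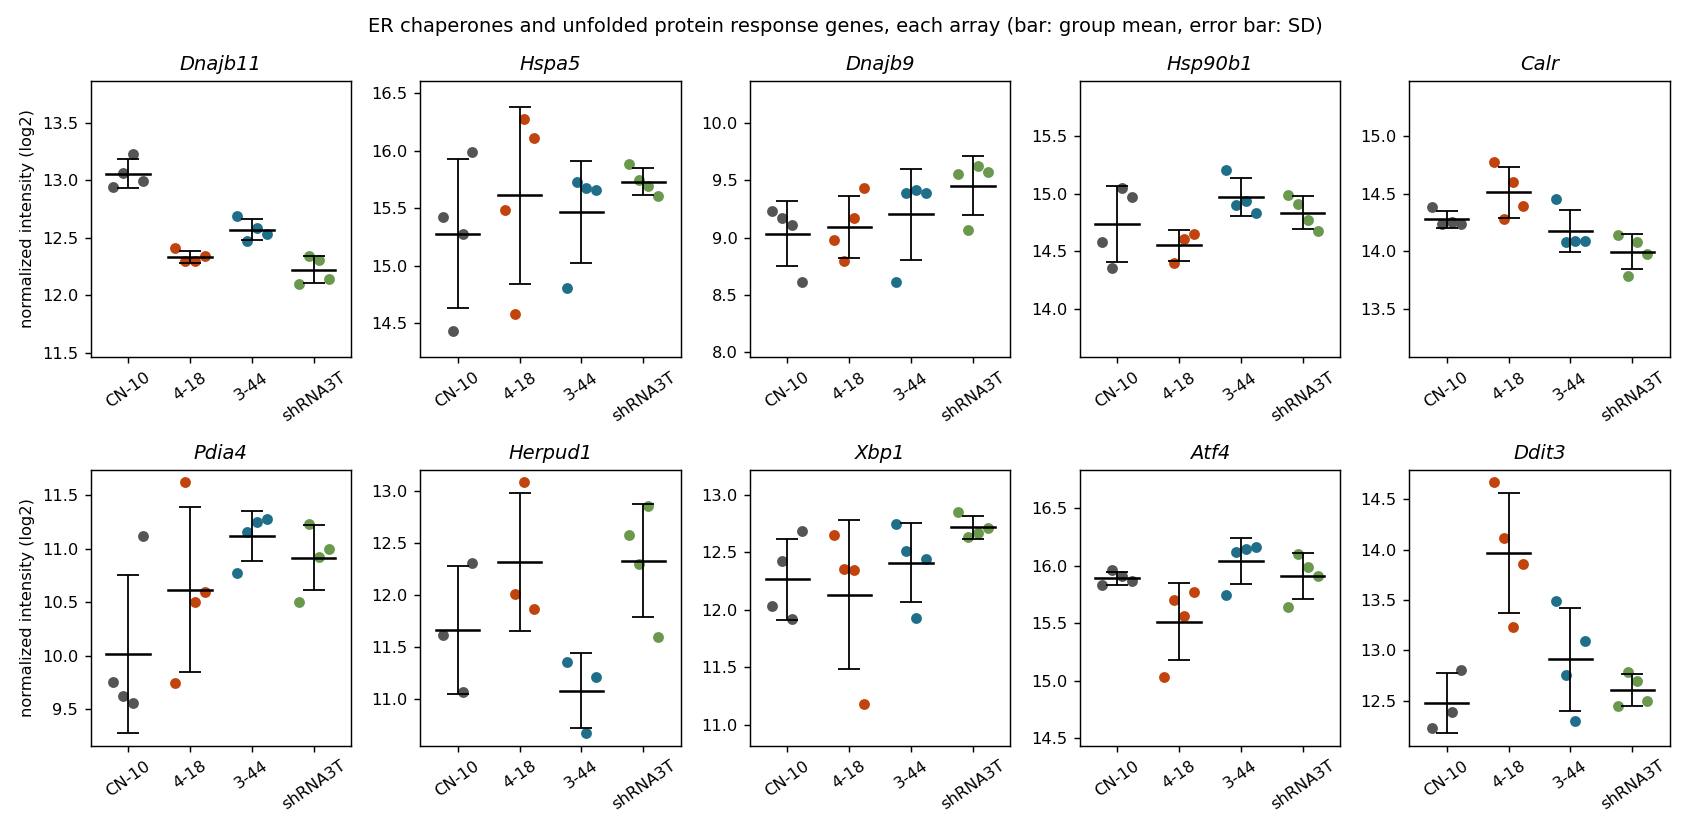
Normalized intensity (log2) of each member on each array, in panels of 1 gene with their own axes, with bars for group means and error bars for SD. The 4 CN-10 arrays of Dnajb11 lie above the 12 silenced arrays, and Ddit3 is highest in 4-18.

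Among the transcription factors, Ddit3 rose in 4-18. Ddit3 encodes CHOP, which is transcribed under ATF4 during prolonged ER stress and is linked to cell death, and its probe lies at chr7:67252505-67252564 (rn4, plus strand). The 3 measured CN-10 arrays read 12.23, 12.39 and 12.81, and the 4-18 arrays 14.67, 14.12, 13.24 and 13.86. In 3-44 they read 13.50, 12.76, 12.30 and 13.09, and in shRNA3T 12.45, 12.79, 12.69 and 12.50. Every 4-18 array was above every array of CN-10 and shRNA3T, and 3-44 overlapped both CN-10 and 4-18.

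Ddit3 was 2.82-fold higher in 4-18 than in CN-10 (SE 0.30 on the log2 scale, limma adjusted p = 0.00238, 95% interval of the log2 difference 0.84 to 2.15), higher on 4 of 4 arrays. Neither the difference of 0.43 in 3-44 nor that of 0.13 in shRNA3T passed (adjusted p = 0.496 and 0.895). The rise differed between silenced groups by test: Ddit3 was higher in 4-18 than in 3-44 by 1.06 (SE 0.28, adjusted p = 0.0141) and than in shRNA3T by 1.37 (SE 0.28, adjusted p = 0.00302). The difference from 3-44 was lost in 2 of 27 alternatives, the fit of only the 8 arrays of both groups (1.06, adjusted p = 0.0702) and the deposited values (0.47, adjusted p = 0.394), and that from shRNA3T in the deposited values alone (0.64, adjusted p = 0.231). The rise against CN-10 passed in 26 of 27 alternatives, the exception being the deposited values not scaled between arrays (0.73, adjusted p = 0.202). In those values only 7.36% of all calls in 4-18 were higher, against 49.2% after quantile normalization.

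Atf4, the factor above Ddit3 in the PERK branch, had a lower mean in that clone than in CN-10, a difference that did not pass. It was spotted 10 times on each array, at chr7:118538840-118538899 (rn4, plus strand). In 4-18 8 of the 10 spots were below CN-10 (-1.22 to 0.33 over all spots), 2 of them without overlap. The CN-10 arrays read 15.83, 15.96, 15.91 and 15.87, and those of 4-18 15.03, 15.70, 15.56 and 15.77. In 3-44 Atf4 read 15.75, 16.12, 16.15 and 16.16, and in shRNA3T 15.64, 16.11, 15.99 and 15.91. All arrays of 4-18 were below all of CN-10, with the lowest on replicate 1. The difference of -0.38 (SE 0.15, limma adjusted p = 0.0837) did not pass. It did in 7 of 27 alternatives, among them the replicate block and the removal of replicate 4 of 4-18 (-0.46, adjusted p = 0.0436). Without replicate 1 of 4-18 the difference shrank to -0.21 (adjusted p = 0.236). Differences in 3-44 and shRNA3T were 0.15 and 0.02 (adjusted p = 0.657 and 0.973). Between the stable silenced clones Atf4 was lower in 4-18 by 0.53 (difference of 4-18 from 3-44 -0.53, SE 0.15, adjusted p = 0.0185), a call lost in 4 of 27 alternatives. These were the spot median (-0.31, adjusted p = 0.418), the fit of only the 8 arrays of both groups (adjusted p = 0.0838) and the removal of replicate 3 or 4 of 3-44 (adjusted p = 0.0524 and 0.0519). Since Atf4 is controlled largely at translation, its protein level is not given by these arrays.

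Xbp1, whose transcript IRE1 splices into the active factor, ranged from 11.92 to 12.69 in CN-10, 11.18 to 12.65 in 4-18, 11.93 to 12.74 in 3-44 and 12.63 to 12.85 in shRNA3T. These ranges overlap, and the differences of -0.13, 0.14 and 0.45 from CN-10 (SE 0.27) did not pass (limma adjusted p = 0.785, 0.842 and 0.358). A probe of this kind does not tell the spliced from the unspliced transcript.

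Counted over the members, 1 of the 9 genes other than Dnajb11 passed an adjusted p of 0.05 in 4-18 against CN-10, where 23.6% of all probes did, and the same gene, Ddit3, passed with 2-fold (5.91% of probes). None of the 9 passed in 3-44 (7.85% of probes, 1.4% with 2-fold) or in shRNA3T (11.9%, 2.29% with 2-fold) in the limma fit. At an unadjusted p under 0.05 it was 2 genes in 4-18 (Atf4 and Ddit3, beside 34% of all probes), 1 in 3-44 (Pdia4, beside 19.3%) and 2 in shRNA3T (Calr and Pdia4, beside 22.8%). Groups without overlap were found for 2 of the 9 in 4-18 (Atf4 and Ddit3, 23% of probes), for none in 3-44 (16.1%) and for 1 in shRNA3T (Calr, 21.9%). With only 9 genes these counts are not read as a difference from all probes, and a single gene makes up the 2-fold share in 4-18. The medians of the 9 differences were 0.24, 0.17 and 0.42, beside 0.01, 0.00 and -0.01 over all probes.

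Among the silenced groups all 10 genes were counted, although the choice of Dnajb11 used values of these groups. Of the 9 genes other than Dnajb11, 33.3% passed between 4-18 and 3-44 and 0% between 3-44 and shRNA3T. Between 4-18 and 3-44 4 of 10 passed (Dnajb11, Herpud1, Atf4 and Ddit3), where 22.1% of probes did, and 2 of them with 2-fold (4.81%). Between 4-18 and shRNA3T it was 2 of 10 (Calr and Ddit3, 20.1% of probes), 1 with 2-fold (4.32%). Between 3-44 and shRNA3T it was Dnajb11 alone (10.6% of probes), and no member passed with 2-fold (2%). Without overlap stood 3 of 10 (21.4% of probes), 3 of 10 (22.2%) and 2 of 10 (21.8%). Absence of a call does not show equal levels: the 95% interval of 4 of the 9 members reached 2-fold in 4-18, of 3 in 3-44 and of 4 in shRNA3T.

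**Figure D4:**
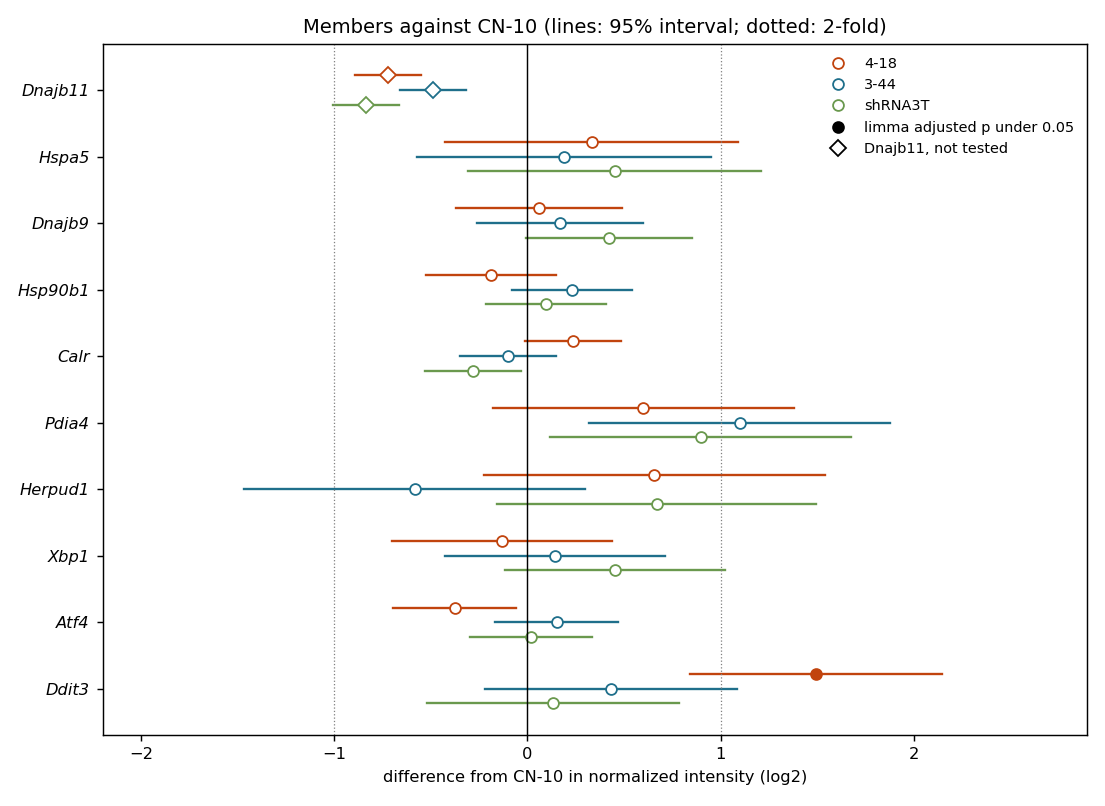
Difference of each member from CN-10 (log2) in 4-18, 3-44 and shRNA3T, with lines for 95% intervals, filled points for a limma adjusted p under 0.05 and diamonds for Dnajb11, which was not tested. Ddit3 in 4-18, 2.82-fold higher, is the only filled point, and the intervals of Hspa5, Pdia4 and Herpud1 are wide.

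Correlation with Dnajb11 from array to array was weak or negative. Over the 13 to 16 arrays with a value Pearson's r with Dnajb11 ran from -0.51 (Pdia4) to 0.20 (Atf4), with r = -0.38 for Hspa5, as a description over arrays that share groups and slides. The 5 genes whose level was most like that of Dnajb11, among 12069 gene names well above background in at least 1 group, were Gpx2 (r = 0.96), Fam3b (0.96), Psmd10 (0.95), H2afx (0.95) and Nckap5l (0.94). Gpx2, a glutathione peroxidase, had group means of 11.23 for CN-10, 9.24 for 4-18, 9.92 for 3-44 and 8.76 for shRNA3T. For Fam3b no array of 4-18 or shRNA3T was well above background. Psmd10 (gankyrin), a chaperone of proteasome assembly, had means of 13.01, 12.12, 12.42 and 11.83 for these groups, the same order as Dnajb11.

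The other genes of the pathway were taken from 6 lists of ER chaperones, folding enzymes, degradation factors, sensors and targets, 65 genes on the array besides the members. In 4-18 8 of the 65 were higher and 9 lower than CN-10 (26.2%, beside 23.6% of all probes), in 3-44 6 and 2 (12.3%, beside 7.85%) and in shRNA3T 5 and 8 (20%, beside 11.9%). Their median differences were 0.11, 0.07 and 0.06. The lists as wholes thus held calls in both directions.

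Sdf2l1, an ER protein that forms a complex with Dnajb11 and keeps it soluble, was the largest change in the list of the Hsp70 system. CN-10 averaged 14.09, 4-18 14.18, 3-44 13.41 and shRNA3T 12.41. Sdf2l1 fell by 1.67 in shRNA3T (SE 0.16, limma adjusted p = 5.76e-06) and by 0.68 in 3-44 (adjusted p = 0.0141), without overlap, and did not pass in 4-18 (0.09, adjusted p = 0.746). A second probe of Sdf2l1 gave -1.80, -0.80 and -0.28 in shRNA3T, 3-44 and 4-18. Between the silenced groups Sdf2l1 was higher in 4-18 than in 3-44 by 0.77 and than in shRNA3T by 1.76 (adjusted p = 0.00224 and 1.6e-06), so that, unlike Dnajb11, its lowest levels were in the groups with shRNA3. Of the 8 genes of this list 1 passed in 3-44 and 1 in shRNA3T, Sdf2l1 in both (12.5%, beside 7.85% and 11.9% of all probes), and 3 in 4-18 (37.5%, beside 23.6%). The 3 that were higher in 4-18 were named after their values were seen: Sdf2 (0.99, adjusted p = 3.1e-06), Sil1, the nucleotide exchange factor of Hspa5 (0.54, adjusted p = 0.0172), and Dnajc10 (0.37, adjusted p = 0.000166).

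Among the folding enzymes, Txndc11, a thioredoxin-domain protein, was higher in 4-18 by 1.04 and in shRNA3T by 0.84 (SE 0.12, limma adjusted p = 1.48e-05 and 0.000238), and read -0.04 in 3-44 (adjusted p = 0.91). Fkbp2, a prolyl isomerase, fell by 1.16 in 4-18 and by 0.66 in shRNA3T (SE 0.16, adjusted p = 6.42e-05 and 0.0116), with 0.03 in 3-44 (adjusted p = 0.952). Of the 15 genes in this list 4 passed in 4-18 (26.7%, beside 23.6% of all probes), 0 in 3-44 (beside 7.85%) and 2 in shRNA3T (13.3%, beside 11.9%). The lectin and glycan list held 1 call among 5 genes, Uggt1 in 4-18 (20%, beside 23.6% of all probes). Uggt1 read -0.37 there (limma adjusted p = 0.0107) and was well above background on 3 of 4 arrays. In ER-associated degradation 1 of 14 passed in 4-18 (7.14%, beside 23.6% of all probes). There were 2 in 3-44 (14.3%, beside 7.85%) and 5 in shRNA3T (35.7%, beside 11.9%).

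Creb3l3 (CREBH), a liver transcription factor held in the ER membrane and released by cleavage, was higher in all 3 silenced groups, and was the sole call among the 10 other sensors and factors in 4-18 and 3-44 (10%, beside 23.6% and 7.85% of all probes). In shRNA3T 2 of the 10 passed (20%, beside 11.9%). CN-10 averaged 13.42, 4-18 14.78, 3-44 14.26 and shRNA3T 15.10, and no silenced array overlapped CN-10. The differences were 1.36, 0.84 and 1.68 (SE 0.13, limma adjusted p = 3.11e-06, 0.000968 and 1.3e-06). Atf6, the sensor that becomes a transcription factor, read -0.13, 0.07 and -0.59, and passed in shRNA3T (adjusted p = 0.00103). These values are from the brighter of its 2 probes, and the other is not given. Atf6 and Uggt1 were named after their values were seen.

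The targets of ATF4 and CHOP moved in both directions. Of 13 targets 2 were higher and 5 lower in 4-18 (53.8%, beside 23.6% of probes), 3 and 1 in 3-44 (30.8%, beside 7.85%), and 1 and 2 in shRNA3T (23.1%, beside 11.9%). Trib3, a pseudokinase induced by both factors, was lower in all 3 groups, with -1.71, -0.75 and -0.80 (SE 0.16, limma adjusted p = 1.97e-06, 0.00883 and 0.00377). Slc7a11, the cystine transporter, read -1.03, 0.06 and -0.58 (SE 0.10, adjusted p = 4.01e-06, 0.826 and 0.00154). It was well above background on 3 of the 4 arrays of 4-18, and a second probe was not so on any array of CN-10, 4-18 or 3-44. Psat1, of serine synthesis, fell in 4-18 by 1.06 (SE 0.31, adjusted p = 0.0201), a call lost in 5 of 16 removals of 1 array (replicates 2, 3 and 4 of CN-10, adjusted p = 0.0559, 0.0601 and 0.0595, and replicates 1 and 2 of 4-18, adjusted p = 0.0621 and 0.0634). Ddit4, named after its values were seen, was higher in all 3 groups (0.58, 0.55 and 0.84, adjusted p = 0.000802, 0.00373 and 7e-05). Only the brighter of its 2 probes is given.

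The cytosolic and mitochondrial chaperones served as a comparison outside the ER. Of 15 genes 4 were higher and 0 lower in 4-18 (26.7%, beside 23.6% of all probes), 1 was higher in 3-44 (6.67%, beside 7.85%), and 2 were higher and 1 lower in shRNA3T (20%, beside 11.9%). Hspa1b, the heat-inducible Hsp70, rose by 2.71, 0.96 and 1.22 (SE 0.11, limma adjusted p = 3.04e-10, 7.53e-05 and 5.04e-06). Another probe of Hspa1b did not stand well above background on any of the 16 arrays. Bag3, its co-chaperone, was higher in 4-18 by 1.10 and in shRNA3T by 0.62 (SE 0.11, adjusted p = 4.33e-06 and 0.00165), and read 0.17 in 3-44 (adjusted p = 0.475).

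**Figure D5:**
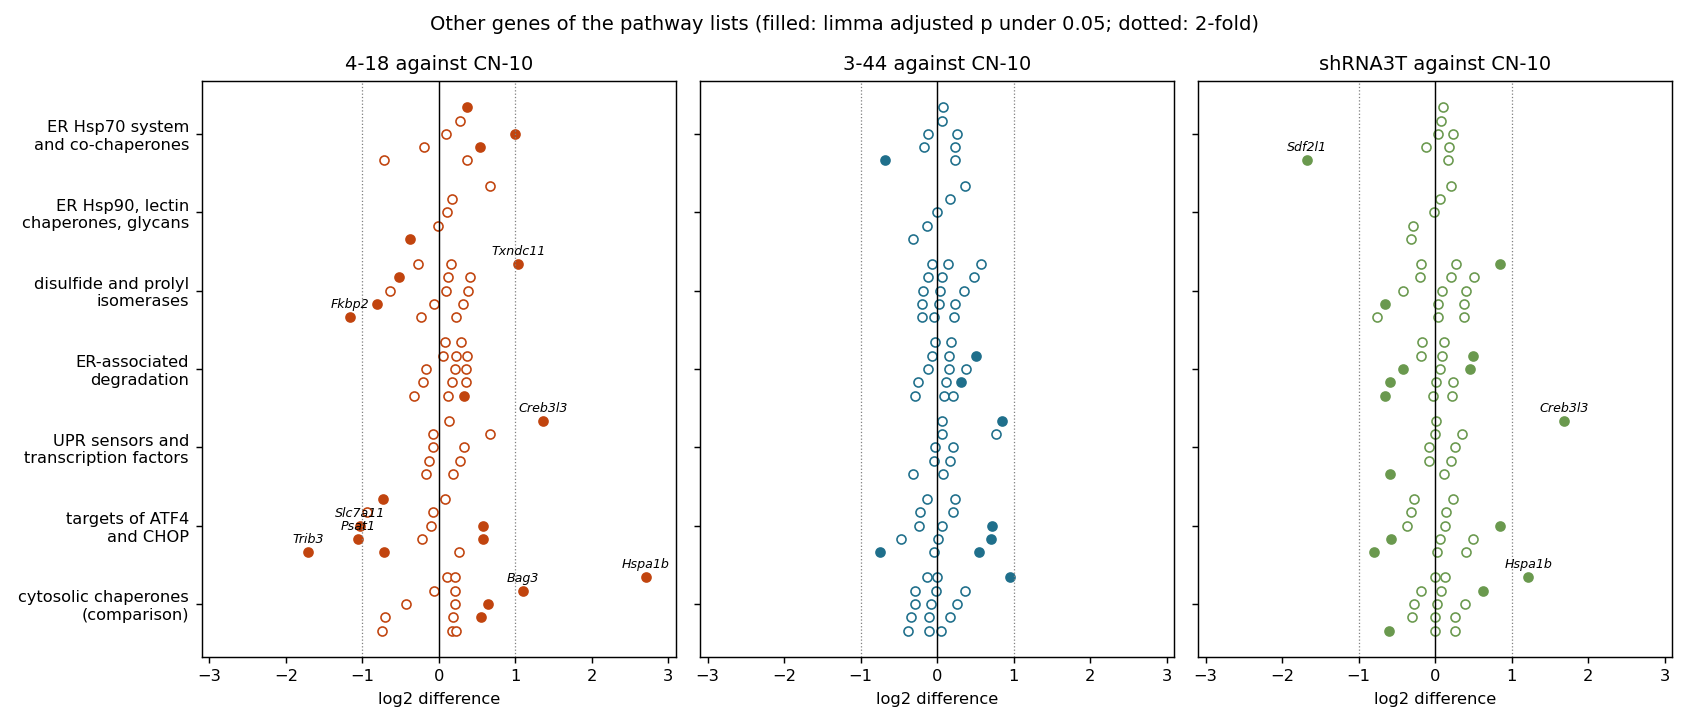
Difference from CN-10 (log2) of the other genes of each list in 4-18, 3-44 and shRNA3T, with filled points for a limma adjusted p under 0.05 and names for those that also passed 2-fold. Creb3l3 lies at 1.36, 0.84 and 1.68 and Trib3 at -1.71, -0.75 and -0.80, while most genes of each list lie between the dotted 2-fold lines.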

How the data were processed

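RNA from 4 groups of 4 replicates was measured on 1-colour Agilent arrays, whose spot and background intensity values the authors obtained with Feature Extraction 10.7.3.1 and deposited unscaled, with 0 or 1 quality flags of the same software. A deposited series table on a log2 scale had lost its decimal points. Once restored it equalled the log2 of the background-corrected median signal (largest difference 3.99e-11), not scaled between arrays, and it served as an alternative. The study names limma with a moderated t-statistic and control of the false discovery rate, without naming the methods of background correction and normalization.

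Here mean signals were corrected for median background with normexp (offset 50), control spots were removed, and log2 intensity was quantile normalized. Outlier spots were set aside, spots of a probe were averaged, and 30367 probes were fitted in limma 3.58.1 (R 4.3.3) with 1 mean per group and Benjamini-Hochberg adjustment over all probes. Intervals cover 95%. A gene is its probe with the highest mean. The fit, tested on simulated data of 29317 probes, recovered 96, 97 and 93 of 100 probes changed by 1.5 on the log2 scale in 4-18, 3-44 and shRNA3T, with 12, 12 and 11 wrong calls. The simulated noise was normal and independent between arrays, and each change was planted alike in all 3 silenced groups. The simulation therefore does not cover slide effects, arrays that deviate together, or changes smaller than 1.5. P-values measure the spread between these replicates only, and 16 arrays limit the precision.

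The members and lists were chosen with earlier results of these data known. Besides the members and Pdrg1, genes were named if they passed 2-fold and an adjusted p of 0.05 in at least 1 comparison with CN-10 (at most 4 a list, those of largest mean change), together with the 5 genes most correlated with Dnajb11. Alternatives comprised other scalings, the deposited values, filters, the spot median, array weights, a replicate block, fits of only the groups compared, and leaving out each array. Promoters came from RefSeq (GRCr8), and probe positions are those of the files (rn4). Figures were drawn with Python 3.11.15 and matplotlib 3.10.9.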

Additional observations from a re-analysis of the deposited data

Results flagged for a closer look

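In 7 of 35 sets of 4 arrays (1 member in 1 group) a single array stood far from the other 3. For a set taken alone chance gives about 1 in 20. The sets share arrays and are not independent, so the count is not read against that rate. Replicate 1 of 3-44 was such an array for Hspa5 (14.81), Dnajb9 (8.61), Calr (14.45) and Atf4 (15.75). The others were replicate 2 of shRNA3T for Dnajb9 (9.07), replicate 1 of CN-10 for Calr (14.38) and replicate 4 of CN-10 for Pdia4 (11.12).

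The silenced groups differed from each other, by limma, for 5 members. Dnajb11, whose choice used values of these groups, differed by -0.23 between 4-18 and 3-44 and by 0.35 between 3-44 and shRNA3T. Ddit3 was higher in 4-18 than in 3-44 by 1.06 and than in shRNA3T by 1.37. Herpud1 was higher in 4-18 than in 3-44 by 1.24, Atf4 differed by -0.53 between the same clones, and Calr was higher in 4-18 than in shRNA3T by 0.52.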

How the results depend on the processing

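All tests rest on 4 arrays a group, each group on its own slide. Of 27 alternatives, 16 left out 1 array and 2 were chosen after seeing the data (75th percentile scaling centred on the median, and all replicate 1 arrays left out). Scaling to the 75th percentile put the median difference of all probes from CN-10 at 0.20 in 4-18 and at -0.23 in shRNA3T, beside 0.01 and -0.01 after quantile normalization. Where counts moved, the cause was not tested. The deposited values, which are not scaled between arrays, ended most calls of single genes.

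Members passing the adjusted p in 4-18 against CN-10 numbered 1 and became 2 with the processed signal and quantile normalization, with outlier spots kept, with centred 75th percentile scaling (0 with 2-fold) and without the replicate 1 arrays. In 3-44 against CN-10 none became 1, also with 2-fold, under 75th percentile scaling, its centred form, the processed signal with quantile normalization, the filter on background and array weights. In shRNA3T against CN-10 none became 3 with array weights (1 with 2-fold) and 1 with centred scaling (1 with 2-fold). Between 4-18 and 3-44, 4 became 2 with the spot median and 0 with only the 8 arrays of both groups, and the 2 with 2-fold became 0 with only those arrays and with centred scaling, and 1 with the deposited values, array weights and the replicate 1 arrays left out. Between 4-18 and shRNA3T, 2 became 1 under 75th percentile scaling and the processed signal with quantile normalization and 5 under centred scaling, and the 1 with 2-fold became 2 with the deposited values. Between 3-44 and shRNA3T, 1 became 0 under both forms of 75th percentile scaling, with the deposited values and without the replicate 1 arrays, and 2 (1 with 2-fold) with the background filter, outlier spots kept, only the 8 arrays and array weights.

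Pathway genes passing in 3-44 against CN-10 went from 8 to 5 under both forms of 75th percentile scaling and the processed signal with quantile normalization, to 14 with array weights and to 0 with the deposited values. In shRNA3T against CN-10 13 became 23 with array weights and 2 with the deposited values. Between 4-18 and shRNA3T 17 became 31 under centred scaling, and between 3-44 and shRNA3T 13 became 7 under 75th percentile scaling and the processed signal with quantile normalization, 21 with array weights and 2 with the deposited values.

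Leaving out 1 array gave 1 to 2 members in 4-18 against CN-10, 0 to 1 (also with 2-fold) in 3-44 and in shRNA3T against CN-10, 1 to 4 (0 to 2 with 2-fold) between 4-18 and 3-44, 1 to 2 (0 to 1 with 2-fold) between 3-44 and shRNA3T, and 5 to 8 pathway genes in 3-44 against CN-10. Without replicate 4 of CN-10 Pdia4 passed in all 3 groups. Between 4-18 and shRNA3T, Dnajb11 turned to -0.36 under centred scaling, and Calr to -0.18 with the deposited values and -0.10 under centred scaling.

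Same-numbered arrays correlated from -0.12 to 0.48 in their deviations (median 0.13), over 0.1 in 14 of 24 pairs. Pairs of unlike number were over 0.1 in 12 of 72 (median -0.03). The 6 pairs of replicate 1 gave 0.19 to 0.48, those of the other numbers -0.12 to 0.28. Since not every pair exceeded 0.1 and the labels name no shared batch, the numbers were not taken to pair the arrays, though the replicate 1 arrays deviated together. With the replicate block the members passing against CN-10 were 3 in 4-18 (Calr, Atf4 and Ddit3), 1 in 3-44 (Pdia4, 1 with 2-fold) and 1 in shRNA3T (Calr). Without the block these counts were 1, 0 and 0, so they depend on that choice. Between 4-18 and 3-44, 1 member passed with 2-fold under the block.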
